A study of Mus musculus with 8 samples.

Results

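The 9 genes described here encode the core of the mouse inflammasome and of the pyroptotic cell death it sets off. They were taken by name: the sensors Nlrp3, Nlrp1b, Nlrc4, Aim2 and Naip5, the adaptor Pycard, the caspases Casp1 and Casp4, and the pore-forming effector Gsdmd. All 9 were found by their Ensembl identifier among the 26930 genes of the count table, and all 9 had enough reads to be tested among 12852 genes. Their RNA was measured in cultured MDSCs (myeloid-derived suppressor cells), a type of immature myeloid cell able to hold back T cell responses. They came from femoral bone marrow of C57BL/6 mice, were cultured with GM-CSF and IL-6 at 40 ng/ml each, and received medium conditioned by the mouse prostate tumour line TRAMP-C1 on day 4. The labels call these cells senescent-like. In the treated arm, 4 libraries came from cells given Romidepsin, an inhibitor of class I histone deacetylases, at 0.5 µM for 6 h, and the other 4 libraries came from cells left untreated. Both arms carry the same conditioned-medium exposure, and no arm without it is part of the comparison. The labels name no separate animals or cultures, and a p-value here reflects the spread among libraries alone, which may be technical.

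An inflammasome is a cytosolic platform that forms when a sensor meets a microbial or danger signal. The sensor recruits the adaptor ASC, the product of Pycard, or a caspase directly, and caspase-1 is activated on the platform. Caspase-1 matures interleukin-1β and interleukin-18 and cuts gasdermin D, whose released fragment forms pores in the plasma membrane. Mouse caspase-4, long known as caspase-11, binds cytosolic lipopolysaccharide and cuts gasdermin D without a platform. In macrophages and other myeloid cells several of these genes are transcribed only weakly until an inflammatory signal primes them, and Nlrp3 and the gene of interleukin-1β are the classical primed genes.

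Nlrp3 and Gsdmd fell in Romidepsin-treated cells, by 0.91 ± 0.23 and 1.74 ± 0.47 on the log2 scale (± SE). No member rose on the TMM scale of the fit reported. Of the other 7, Nlrp1b, Nlrc4, Casp4, Pycard, Casp1 and Naip5 had lower means in Romidepsin-treated cells without passing the test, and Aim2 had a higher mean without passing it. With the replicate number as a block, Nlrp1b (adjusted p = 0.0159), Nlrc4 (0.0234) and Casp4 (0.00936) also passed as lower. Il1b, the gene of the cytokine that this machinery releases, rose in Romidepsin-treated cells and is described with the cytokines. How many members passed varied with the fit and with the libraries kept. With all 8 libraries 2 of 9 were lower, while 16.2% of all tested genes were. With the replicate block 5 of 9 were lower, against 20.8% of all genes. Without Romidepsin replicate 3 it was 8 of 9, with Aim2 the exception, against 23.4% of all genes.

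Total counts per library ranged from 12996892 to 23176949, and every library other than the deepest, untreated replicate 4, had at most 15396077. Levels are CPM, read counts divided by library size on the usual scale, with library sizes adjusted by TMM, the trimmed mean of M-values. Of all tested genes, 20.3% were called higher and 16.2% lower at an adjusted p under 0.05. Together that was 36.5% of genes. Higher genes made up 55.65% of calls (2610 higher, 2080 lower), but 73.96% when libraries were scaled by size alone (3886 higher, 1368 lower) and 87.32% when they were scaled to 21 housekeeping genes (5036 higher, 731 lower), settings that moved the median log2 fold change of all genes by 0.30 and 0.69. Romidepsin replicate 3 stood apart: its mean correlation with untreated libraries was 0.934, against 0.801 to 0.887 for the other Romidepsin libraries. The summed level of the 9 genes was 364, 352, 889 and 597 CPM in Romidepsin replicates 1 to 4, against 881, 952, 999 and 812 CPM in untreated replicates 1 to 4. All 13 markers of myeloid cells and MDSCs fixed for this work had reads in all libraries, although Ly6g, at 5.32 ± 4.77 CPM in Romidepsin-treated and 13.1 ± 6.65 CPM in untreated cells (SD, n = 4 each), and Ly6c1 were low.

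Promoter windows of Nlrp3, Casp1, Casp4 and Aim2 are printed here, and a link between motifs and fold changes was not tested. RefSeq (GRCm38.p6) gave windows for 8 of the 9 members, all but Gsdmd. Windows follow RefSeq starts, whereas the gene positions given below are those of GENCODE M21. The Aim2 window therefore lies inside the span given for that gene, 173350879 to 173466040. The 250 bases before each annotated start were searched on both strands for GGG and CC separated by any 5 bases (a loose NF-κB motif), for GAAA and GAAA separated by any 2 bases (interferon-stimulated response element), and for TTCNNNGAA (STAT motif), GAGGAA (part of the PU.1 and ETS motif), TGANTCA (AP-1) and GGGCGG (GC box). Matches are in capitals, bases of annotated exons are left out, and each sequence runs 5′ to 3′ on the gene's own strand.
Nlrp3, chr11:59541319-59541567, plus strand: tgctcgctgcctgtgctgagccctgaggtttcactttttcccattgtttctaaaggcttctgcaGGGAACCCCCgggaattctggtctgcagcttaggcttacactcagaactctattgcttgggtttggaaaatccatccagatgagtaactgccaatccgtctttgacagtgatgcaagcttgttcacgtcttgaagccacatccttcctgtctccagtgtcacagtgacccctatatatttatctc
Casp1, chr9:5298267-5298516, plus strand: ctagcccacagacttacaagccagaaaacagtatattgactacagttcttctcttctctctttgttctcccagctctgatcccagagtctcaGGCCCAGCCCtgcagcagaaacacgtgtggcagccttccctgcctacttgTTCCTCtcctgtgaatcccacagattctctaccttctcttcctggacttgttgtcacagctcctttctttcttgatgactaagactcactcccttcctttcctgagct
Casp4, chr9:5308599-5308827, plus strand: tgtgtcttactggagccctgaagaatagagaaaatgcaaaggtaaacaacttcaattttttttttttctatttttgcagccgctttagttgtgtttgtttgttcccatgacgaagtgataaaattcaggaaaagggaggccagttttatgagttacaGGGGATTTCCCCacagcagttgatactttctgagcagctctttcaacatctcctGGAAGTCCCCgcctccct
Aim2, chr1:173420354-173420570, plus strand: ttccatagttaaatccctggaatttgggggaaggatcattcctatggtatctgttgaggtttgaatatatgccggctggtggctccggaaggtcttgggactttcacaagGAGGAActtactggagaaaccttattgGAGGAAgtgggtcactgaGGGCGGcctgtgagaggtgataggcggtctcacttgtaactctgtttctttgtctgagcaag
The Casp4 window held 5 matches to the NF-κB motif, of which 3 overlap each other in 1 run and 1 lies in the exonic bases not printed, and 2.22% of all 32841 promoter windows of this length held at least 5. The Nlrp3 and Casp1 windows printed here held 1 such match each, and at least 1 match occurs in 45.8% of all windows. The Casp1 window also held 1 GAGGAA match, on the opposite strand. The Aim2 window held 2 GAGGAA matches and 1 GC box. Among the windows not printed, the second Nlrp3 window held 3 GAGGAA matches and no NF-κB match. The Pycard window and 1 of the Nlrp1b windows held 1 GAGGAA match each and no NF-κB match. All 250 bases of the Pycard window lie in annotated exon sequence, its match included. The Naip5 window held 1 NF-κB match and no GAGGAA match, while the Nlrc4 window and the other Nlrp1b window held neither. At least 1 GAGGAA match occurs in 23.3% of all windows, and at least 1 GC box in 32.7%. None of the 11 member windows held the interferon, STAT or AP-1 motif, which occurred in 2.98%, 7.02% and 6.75% of windows. A match describes these letters and is not evidence of a bound site.

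Nlrp3 encodes the sensor of membrane damage, potassium efflux and crystals, and is annotated on chromosome 11 at 59541568 to 59566956 (GRCm38, plus strand). Romidepsin replicates 1 to 4 held 55.3, 77.8, 57.8 and 37.3 CPM, against 111, 90.4, 97.7 and 130.2 CPM in untreated replicates 1 to 4. Every Romidepsin library lay below every untreated one, a separation that 16.5% of all tested genes also showed in this direction and 18.7% in the other. The means were 57.1 ± 16.6 CPM in Romidepsin-treated and 107 ± 17.5 CPM in untreated cells (SD, n = 4 each), and the log2 fold change was −0.91 ± 0.23 (edgeR adjusted p = 0.0152). Nlrp3 was the member least tied to Romidepsin replicate 3: without that library the log2 fold change was −0.94. The call ended with library size scaling (−0.60, adjusted p = 0.0843) and with housekeeping scaling (−0.22, adjusted p = 0.638), so the fall is relative to the TMM scale.

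Aim2 encodes the sensor of double-stranded DNA in the cytosol and is annotated on chromosome 1 at 173350879 to 173466040. It held 88.2, 86.4, 196 and 163 CPM in Romidepsin replicates 1 to 4, against 94.4, 97.7, 102 and 80.0 CPM in untreated replicates 1 to 4. Romidepsin replicates 3 and 4 were above all untreated libraries, while Romidepsin replicates 1 and 2 lay among them. Its log2 fold change was 0.51 ± 0.28 (edgeR adjusted p = 0.168). It passed as higher with library size scaling (0.77, adjusted p = 0.0276) and with housekeeping scaling (1.12, adjusted p = 0.0049), and without Romidepsin replicate 3 its log2 fold change was 0.25 (adjusted p = 0.428).

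Nlrc4 encodes the sensor that assembles once a NAIP protein has bound bacterial flagellin or secretion system parts, and Naip5 encodes the NAIP that binds flagellin. Nlrc4 (chromosome 17, 74425438 to 74459142, minus strand) held 9.98, 9.02, 39.0 and 24.5 CPM in Romidepsin replicates 1 to 4, against 43.9, 41.5, 38.1 and 55.9 CPM in untreated replicates 1 to 4. The groups touched only because Romidepsin replicate 3 exceeded untreated replicate 3. The log2 fold change of Nlrc4 was −1.12 ± 0.44 (edgeR adjusted p = 0.0713). It passed with the replicate block (−1.38, adjusted p = 0.0234) and without Romidepsin replicate 3 (−1.65, adjusted p = 0.00604).

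Naip5 (chromosome 13, 100211739 to 100246323, minus strand) stood at 58.3, 48.7, 100.3 and 63.9 CPM in Romidepsin replicates 1 to 4, against 86.3, 93.3, 83.4 and 73.4 CPM in untreated replicates 1 to 4. Romidepsin replicate 3 was the highest of all 8 libraries and the other Romidepsin libraries were the lowest 3. Its log2 fold change was −0.31 ± 0.22 (edgeR adjusted p = 0.29), or −0.58 without Romidepsin replicate 3 (adjusted p = 0.0182), and it was 0.31 with housekeeping scaling (adjusted p = 0.279). Of the 75-base stretches of annotated Naip5 transcripts, 23.8% also occur in transcripts of other genes, mainly Naip6, Naip3 and Naip1, so reads may have been split among these copies and the Naip5 value is uncertain.

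Nlrp1b, a sensor known for its activation by anthrax lethal factor in some mouse strains but not all, was the least expressed member. It is annotated on chromosome 11 at 71153102 to 71230733, minus strand. Nlrp1b had 7, 7, 76 and 42 reads in Romidepsin replicates 1 to 4, against 68, 53, 88 and 221 reads in untreated replicates 1 to 4. In CPM these are 0.401, 0.445, 5.03 and 2.72 in Romidepsin libraries, against 5.44, 4.38, 7.23 and 10.7 in untreated libraries. Romidepsin replicates 1 and 2 were far below the rest, and Romidepsin replicate 3 lay among the untreated libraries. The log2 fold change was −1.70 ± 0.75 (edgeR adjusted p = 0.102). It passed with the replicate block (−2.21, adjusted p = 0.0159) and without Romidepsin replicate 3 (−2.57, adjusted p = 0.0167).

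**Figure D1:**
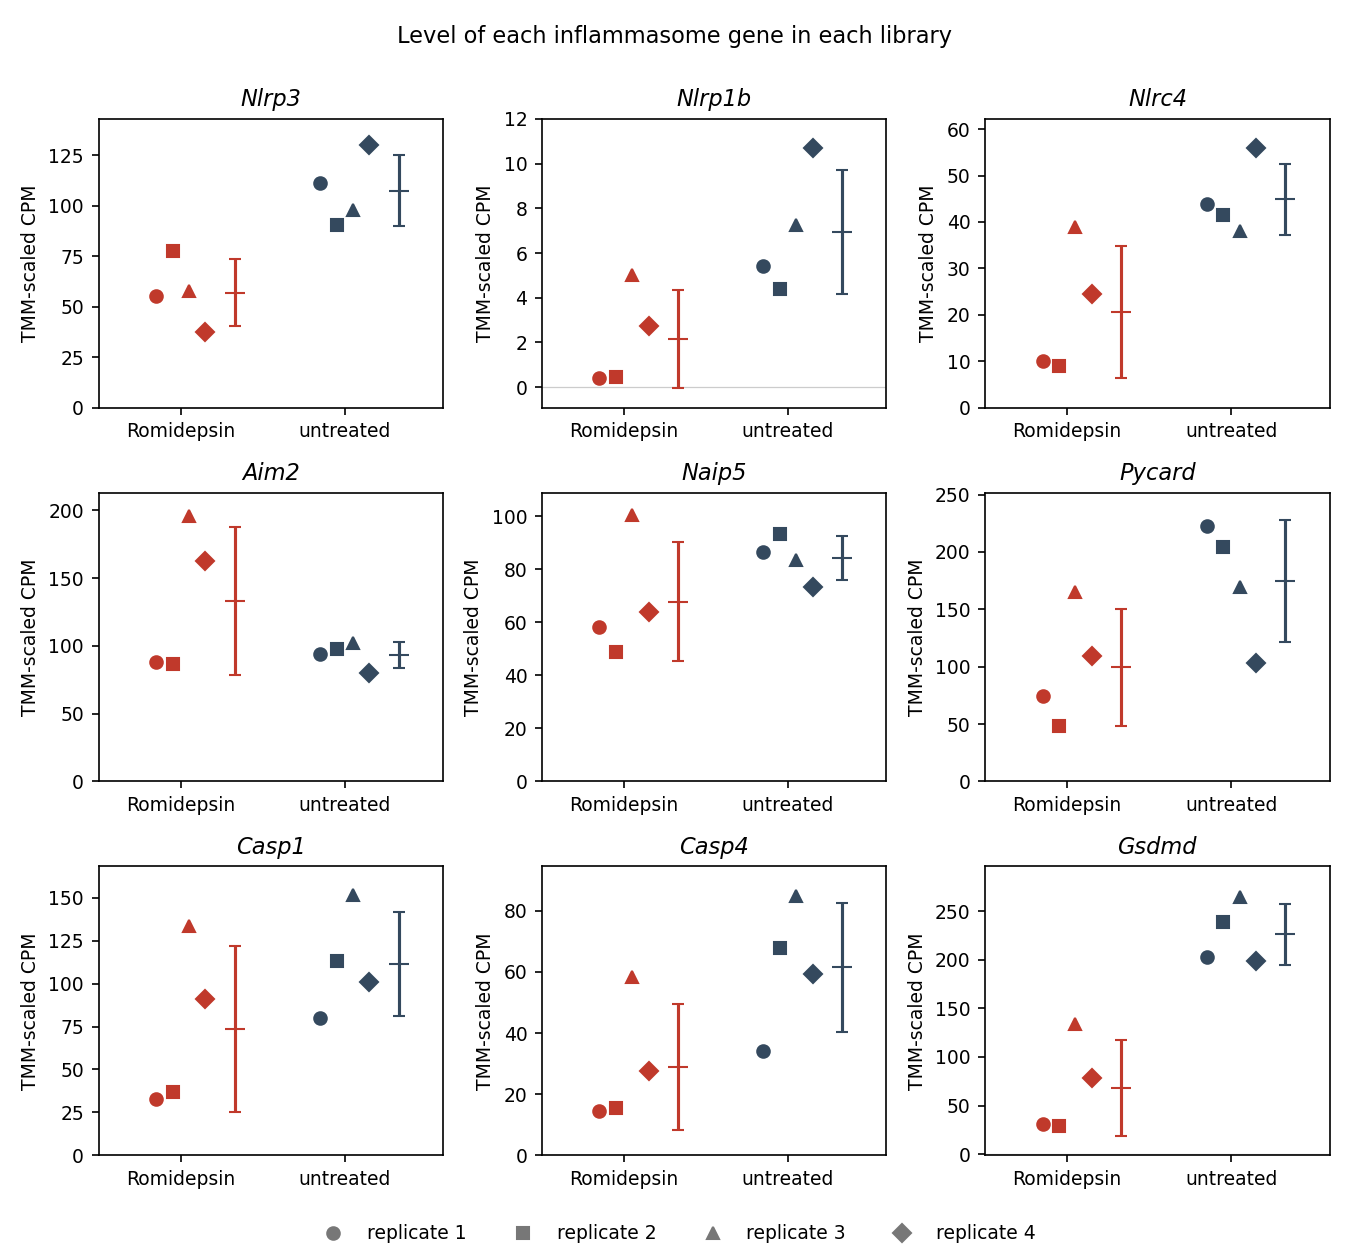
TMM-scaled CPM of each of the 9 genes in each library, Romidepsin left and untreated right, with the marker shape giving the replicate number and the bar beside each group its mean ± SD (n = 4). In Gsdmd and Nlrp3 the groups do not overlap, and in 8 of the 9 panels, all but Nlrp3, the triangle of Romidepsin replicate 3 is the highest Romidepsin value.

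Pycard encodes ASC, the adaptor that links most sensors to caspase-1 and polymerises into specks (chromosome 7, 127989708 to 127993867, minus strand). It held 74.3, 48.4, 165 and 109 CPM in Romidepsin replicates 1 to 4, against 223, 205, 169 and 103 CPM in untreated replicates 1 to 4. The groups overlapped through untreated replicate 4, the lowest untreated library, as well as through Romidepsin replicates 3 and 4. The log2 fold change of −0.82 ± 0.38 did not pass (edgeR adjusted p = 0.116), while without Romidepsin replicate 3 it was −1.19 (adjusted p = 0.0196). Pycard was the one member whose exons overlap another annotated gene, Gm45205 on the opposite strand, over 485 bases or 12.8% of its exon length, and without a stated strand setting those reads cannot be told apart.

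Casp1, the gene of the protease at the centre of every canonical inflammasome, and Casp4 are neighbours on the plus strand of chromosome 9, with Casp1 at 5298517 to 5307265 and Casp4 at 5308828 to 5336783, only 1562 bases apart. Casp1 held 32.6, 36.9, 134 and 90.9 CPM in Romidepsin replicates 1 to 4, against 79.8, 113, 152 and 101 CPM in untreated replicates 1 to 4. Between same-numbered libraries the log2 ratios of Casp1, Romidepsin over untreated, were −1.29, −1.61, −0.18 and −0.15 for numbers 1 to 4. The groups overlapped, and the log2 fold change of −0.60 ± 0.44 did not pass (edgeR adjusted p = 0.303; 0.0568 with the replicate block). Without Romidepsin replicate 3 it was −1.08 (adjusted p = 0.0475).

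Casp4 held 14.4, 15.3, 58.4 and 27.6 CPM in Romidepsin replicates 1 to 4, against 34.0, 67.8, 84.8 and 59.4 CPM in untreated replicates 1 to 4. Between same-numbered libraries its log2 ratios were −1.23, −2.14, −0.54 and −1.10 for numbers 1 to 4, and only Romidepsin replicate 3 lay within the untreated range. The log2 fold change of −1.09 ± 0.47 did not pass (edgeR adjusted p = 0.0926). It passed with the replicate block (−1.25, adjusted p = 0.00936) and without Romidepsin replicate 3 (−1.71, adjusted p = 0.00482). Within each library, which needs no scaling between libraries, the log2 ratio of Casp1 to Casp4 reads was 1.18, 1.27, 1.20 and 1.72 in Romidepsin replicates 1 to 4, against 1.23, 0.74, 0.84 and 0.76 in untreated replicates 1 to 4. The ratios overlapped through untreated replicate 1.

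Gsdmd encodes gasdermin D, the pore former of pyroptosis (chromosome 15, 75862327 to 75867408, plus strand), and showed the lowest log2 fold change of the 9 in the fit reported; Nlrp1b was lower with the replicate block (−2.21, against −2.02 for Gsdmd), without Romidepsin replicate 3 (−2.57 against −2.32) and with limma-voom (−2.43 against −2.03). It held 30.7, 29.2, 134 and 78.2 CPM in Romidepsin replicates 1 to 4, against 203, 239, 265 and 199 CPM in untreated replicates 1 to 4. All Romidepsin libraries lay below all untreated ones, and the Romidepsin libraries differed widely among themselves. The means were 68.0 ± 49.5 CPM in Romidepsin-treated and 226 ± 31.6 CPM in untreated cells (SD, n = 4 each). The log2 fold change was −1.74 ± 0.47 (edgeR adjusted p = 0.0198), and −2.32 without Romidepsin replicate 3 (adjusted p = 0.00164). Gsdmd was still lower with library size (−1.503, adjusted p = 0.0168) and housekeeping scaling (−1.22, adjusted p = 0.0138). The call was lost without untreated replicate 3 (−1.65, adjusted p = 0.0506) and with no count filter (−1.75, adjusted p = 0.0533).

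The log2 ratio of Aim2 to Gsdmd reads within each library set these opposite ends of the list side by side without any scaling. It was 1.52, 1.57, 0.55 and 1.06 in Romidepsin replicates 1 to 4, against −1.10, −1.29, −1.38 and −1.31 in untreated replicates 1 to 4. Aim2 had more reads than Gsdmd in every Romidepsin library and fewer in every untreated one, Romidepsin replicate 3 included. The difference in means was 2.45, and this pair was chosen after the values were seen.

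**Figure D2:**
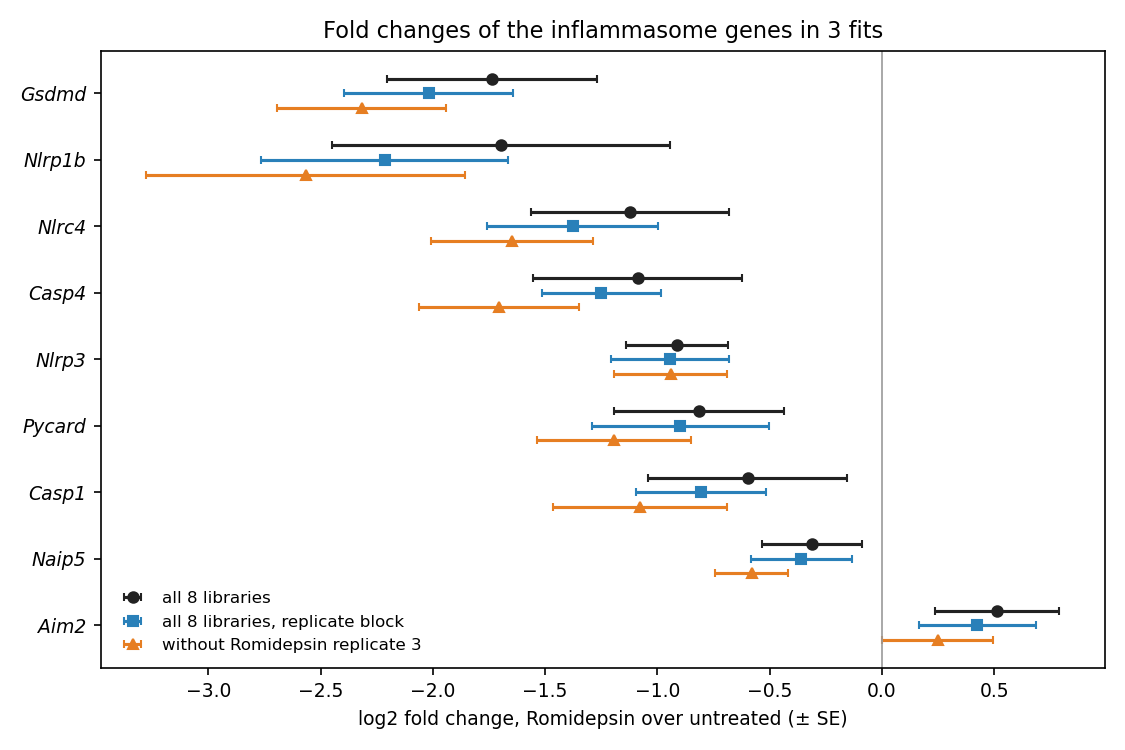
Log2 fold change of each gene, Romidepsin over untreated, with its standard error, in the fit of all 8 libraries (circles), the same fit with the replicate number as a block (squares) and the fit without Romidepsin replicate 3 (triangles). Gsdmd lies lowest and Aim2 highest among the circles, and Nlrp3 hardly moves between the fits.

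Read against all genes, 2 of 9 members were called lower and 0 higher, while 16.2% of all tested genes were called lower and 20.3% higher. With the replicate block 5 of 9 were lower (Nlrp3, Nlrp1b, Nlrc4, Casp4 and Gsdmd), against 20.8% of all genes (21.2% were higher, 41.9% either), and without Romidepsin replicate 3 it was 8 of 9, against 23.4% (24.5% higher, 47.9% either). With library size scaling 1 member was lower (Gsdmd, 10.6% of all genes) and 1 higher (Aim2, 30.2% of all genes, 40.9% either), and with housekeeping scaling the same 2 genes were called, against 5.69% lower, 39.2% higher and 44.9% either among all genes. Among the 9018 genes with mean levels in the range of the members, from 4.54 to 147 CPM, 16.8% were lower and 22.4% higher. The members' median log2 fold change was −0.91, against 0.01 for all tested genes, and with housekeeping scaling −0.22 against 0.70. On the TMM scale no member was called higher by edgeR, whether by adjusted or by unadjusted p under 0.05 (0 genes each). Limma-voom called 0 members higher, as did the DESeq2 Wald test with its own size factors. DESeq2 and limma-voom each called 5 members lower. Among all 12852 genes DESeq2 called 2794 lower and 2814 higher, and limma-voom 2405 lower and 2574 higher.

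Levels between genes are compared per kilobase of merged annotated exons. The merged length pools all annotated transcripts of a gene and can exceed that of the transcript in use. It was 3800 bases for Pycard, most of its span from 127989708 to 127993867, against 1497 bases for Casp1. A gene with an overlong merged length, as Pycard may have, is placed too low, so the order depends on the annotation. In Romidepsin-treated cells the order of the means was Casp1 at 49.1 ± 32.2 CPM per kb, Aim2 at 38.1 ± 15.6, Gsdmd at 28.6 ± 20.8, Pycard at 26.1 ± 13.3, Nlrp3 at 14.1 ± 4.08, Naip5 at 13.03 ± 4.33, Casp4 at 7.80 ± 5.54, Nlrc4 at 4.29 ± 2.94 and Nlrp1b at 0.341 ± 0.350 (SD, n = 4). Neighbours in this order overlapped in their libraries, with Nlrc4 and Nlrp1b as the exception. In untreated cells Gsdmd was highest at 95.3 ± 13.3 CPM per kb, followed by Casp1 at 74.4 ± 20.2, Pycard at 46.0 ± 13.9, Aim2 at 26.7 ± 2.72, Nlrp3 at 26.5 ± 4.32, Casp4 at 16.6 ± 5.71, Naip5 at 16.2 ± 1.59, Nlrc4 at 9.33 ± 1.61 and Nlrp1b at 1.10 ± 0.439 (SD, n = 4). Here the neighbours overlapped except Naip5 and Nlrc4, and Nlrc4 and Nlrp1b. By mean, Gsdmd stood at rank 3 in Romidepsin-treated and rank 1 in untreated cells, and Aim2 at rank 2 in Romidepsin-treated and rank 4 in untreated cells.

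**Figure D3:**
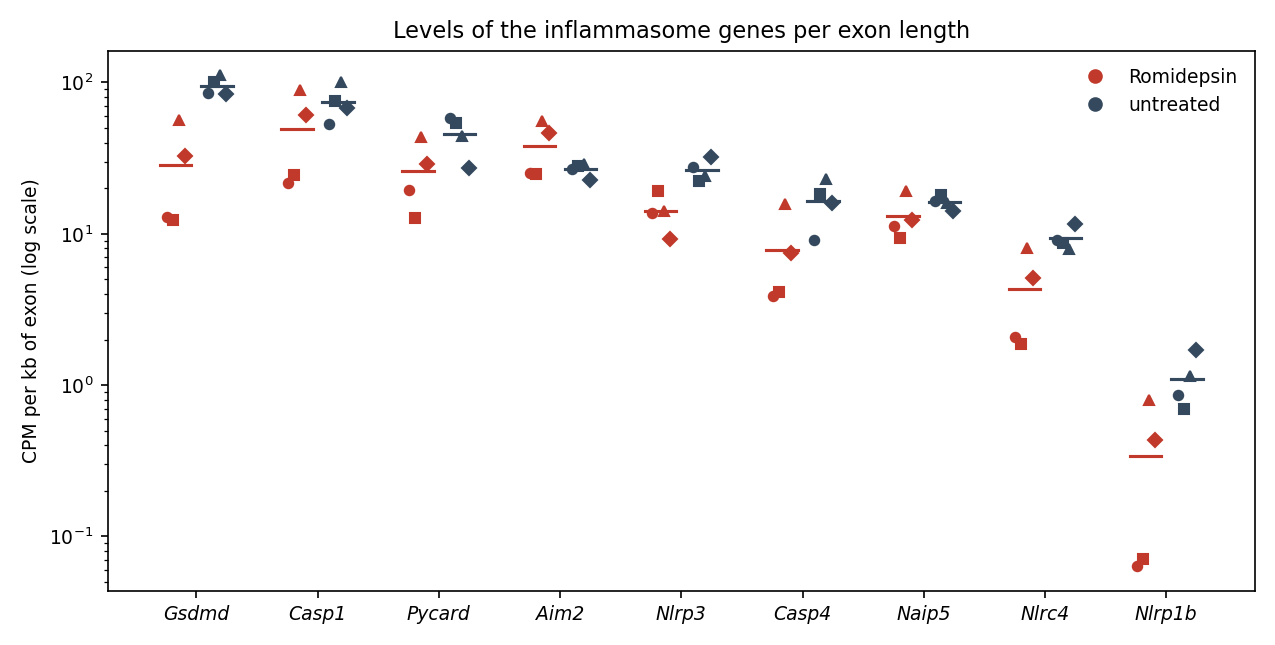
CPM per kilobase of merged exons for each gene and library on a log axis, Romidepsin left of untreated for each gene, with horizontal lines at the group means and marker shapes giving the replicate number (circle 1, square 2, triangle 3, diamond 4). By mean on this length scale Gsdmd is the highest gene in untreated cells and Nlrp1b the lowest in both groups.

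The genes whose profile over the 8 libraries was most like that of Nlrp3, by the smallest root mean square difference in centred log2 CPM among 8680 genes, were Parn (0.136), Ints14 (0.155), Ints3 (0.159) and Med16 (0.165). Parn encodes a poly(A)-specific ribonuclease, Ints14 and Ints3 encode Integrator subunits, and Med16 encodes a Mediator subunit. For Casp1 they were Cd300ld (0.137), Ptms (0.160), Pnp (0.171) and Zfp945 (0.179), and Pnp shares exon sequence with other annotated genes. The lists had no gene in common.

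Of 71 other genes of the pathway, grouped by role, 63 were tested. By the same test 23 fell, 6 rose and 34 did not pass, with a median log2 fold change of −0.82 against 0.01 for all tested genes. The replicate block gave 36 lower and 6 higher calls, leaving out Romidepsin replicate 3 gave 36 lower and 7 higher, and scaling to housekeeping genes gave 12 lower and 8 higher. Among all tested genes 16.2% were lower and 20.3% higher in the fit reported, 20.8% lower and 21.2% higher with the block, 23.4% lower and 24.5% higher without Romidepsin replicate 3, and 5.69% lower and 39.2% higher with housekeeping scaling. Of the list, 2 genes (Gsdma2 and Gsdma3) had no entry in the table and 6 (Nlrp1a, Nlrp6, Nlrp12, Gsdma, Gsdmc and Pjvk) had too few reads.

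Among 8 other sensors, 4 fell and none rose (0 by unadjusted p, DESeq2 or limma-voom). Zbp1, a sensor of Z-form nucleic acids, fell to 40.8 ± 53.7 CPM in Romidepsin-treated cells, against 319 ± 173 CPM in untreated cells (log2 fold change −2.97 ± 0.98, adjusted p = 0.0421). Naip6 (−0.999 ± 0.32) and the weakly expressed Nlrp10 (−1.18 ± 0.38) also fell. Naip6 shares 75-base stretches with Naip5, so reads may have been split between them and the Naip6 value is uncertain too. The NAIP gene Naip2 and the peptidoglycan sensor Nod2 did not pass, at 115 ± 10.0 and 34.9 ± 10.8 CPM in Romidepsin-treated cells against 125 ± 48.1 and 32.98 ± 8.08 CPM in untreated cells. The calls of Zbp1, Naip6 and Nlrp10 were fragile. They were lost without Romidepsin replicate 1 (adjusted p = 0.0588, 0.0873 and 0.102), replicate 2 (0.0836, 0.0917 and 0.0913) or replicate 4 (0.1, 0.088 and 0.0927), and without untreated replicate 2 (0.0763, 0.0761 and 0.0534), replicate 3 (0.0953, 0.0873 and 0.0822) or replicate 4 (0.0735, 0.0851 and 0.0584). Nlrp10 was also lost without untreated replicate 1 (0.0728). With no count filter Zbp1 (0.168) and Nlrp10 (0.103) did not pass, and with library size and housekeeping scaling neither Naip6 (0.054 and 0.239) nor Nlrp10 (0.066 and 0.233) did.

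Of 6 other caspase, gasdermin and membrane rupture genes, 1 rose and 1, Casp8, fell. Casp8, which can cut gasdermin D as well as start apoptosis, averaged 50.5 ± 41.4 CPM in Romidepsin-treated and 170.4 ± 24.0 CPM in untreated cells (−1.75 ± 0.52, adjusted p = 0.0284). That call ended without Romidepsin replicate 1, 2 or 4 (adjusted p = 0.053, 0.0533 and 0.0627) and without untreated replicate 2 or 3 (0.0568 and 0.0671), and with no count filter (0.1). Gsdme, the gene of another pore-forming gasdermin, had a log2 fold change of −1.15 ± 0.44 (adjusted p = 0.0644; 0.0462 with the block), or −0.62 without untreated replicate 1 (adjusted p = 0.181), and Ninj1, which ruptures the membrane after pore formation, −0.58 ± 0.31 (adjusted p = 0.155).

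Of 18 activators and licensing genes, 6 fell and 2 rose. The potassium efflux step upstream of NLRP3 was represented by P2rx7, the ATP-gated channel, and Kcnk6, a potassium channel. P2rx7 fell to 24.8 ± 16.4 CPM in Romidepsin-treated cells, against 88.8 ± 27.0 CPM in untreated cells (−1.84 ± 0.43, adjusted p = 0.012), and Kcnk6 fell by 1.51 ± 0.45 on the log2 scale (adjusted p = 0.0289). The call of Kcnk6 was lost without Romidepsin replicate 1 or 4 (adjusted p = 0.064 and 0.0592) and without untreated replicate 2, 3 or 4 (0.0517, 0.0663 and 0.0621). Gm12250, the gene of the immunity-related GTPase IRGB10, fell, with a log2 fold change of −3.23 ± 0.83 (adjusted p = 0.0165). With no count filter neither Kcnk6 (0.0856) nor Gm12250 (0.0846) passed.

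Txnip, whose product has been reported to bind NLRP3 under oxidative stress, rose to 2945 ± 727 CPM in Romidepsin-treated cells, against 1395 ± 164 CPM in untreated cells (1.08 ± 0.26, adjusted p = 0.0129), although 19.4% of its exon length is shared with Gm15441 on the opposite strand. Ripk3, the kinase of necroptosis, rose by 0.63 ± 0.15 (adjusted p = 0.0125), with 70.2, 60.3, 71.0 and 73.6 CPM in Romidepsin replicates 1 to 4 against 50.4, 43.9, 47.2 and 36.5 CPM in untreated replicates 1 to 4. Nek7, the kinase that bridges NLRP3 subunits, was at 86.8 ± 9.89 CPM in Romidepsin-treated and 96.2 ± 19.3 CPM in untreated cells and did not pass (−0.15 ± 0.18, adjusted p = 0.524). Ripk1, an apical kinase of cell death, missed the threshold at −0.77 ± 0.27 (adjusted p = 0.0527). It passed in 7 of 18 alternatives and not in the other 11. These 7 were the block (adjusted p = 0.0189), DESeq2 size factors (0.0461), no count filter (0.0403) and the DESeq2 Wald test (0.0239). The rest were the fits without Romidepsin replicate 3 (0.0193), without untreated replicate 1 (0.0423) and without both libraries numbered 3 (0.0471).

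Of 12 inhibitors, 6 fell and none rose (0 by unadjusted p, DESeq2 or limma-voom). Serpinb9, a granzyme B inhibitor also reported to restrain caspase-1, fell to 4.61 ± 1.74 CPM in Romidepsin-treated cells, against 25.2 ± 10.3 CPM in untreated cells (−2.45 ± 0.36, adjusted p = 0.00229). Dpp9, the dipeptidyl peptidase that holds NLRP1 inactive, fell to 25.8 ± 3.54 CPM in Romidepsin-treated cells, against 57.2 ± 9.30 CPM in untreated cells (−1.15 ± 0.17, adjusted p = 0.00229), a call that ended with housekeeping scaling (−0.51, adjusted p = 0.162). Cflar, the caspase-8 inhibitor cFLIP, fell by 1.72 ± 0.37 (adjusted p = 0.0091). Card19 (−0.11, adjusted p = 0.727) and Gpx4, an enzyme that detoxifies lipid peroxides (−0.50, adjusted p = 0.0854), did not pass.

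Of 9 cytokine, antagonist and receptor genes, 3 rose and 2 fell. Il1b, the gene of the main caspase-1 substrate, held 271, 343, 33.1 and 76.8 CPM in Romidepsin replicates 1 to 4, against 31.4, 34.8, 24.3 and 25.2 CPM in untreated replicates 1 to 4 (2.65 ± 0.64, adjusted p = 0.014), and Romidepsin replicate 3 lay within the untreated range. With no count filter Il1b did not pass (adjusted p = 0.0656). Il1a rose as well, to 9.93 ± 5.67 CPM in Romidepsin-treated cells, against 2.17 ± 0.349 CPM in untreated cells (2.19 ± 0.44, adjusted p = 0.00693). Both genes share exon sequence with an antisense gene. Il18, the other substrate of caspase-1, did not pass, with 11.2, 9.91, 46.5 and 27.3 CPM in Romidepsin replicates 1 to 4 against 17.5, 24.7, 35.8 and 22.3 CPM in untreated replicates 1 to 4 (−0.08 ± 0.48, adjusted p = 0.906). Il1rn, the gene of the interleukin-1 receptor antagonist, fell, with a log2 fold change of −1.044 ± 0.35 (adjusted p = 0.0433). Il18r1, a receptor chain, fell with −3.16 ± 0.65 (adjusted p = 0.00756) on 10, 6, 6 and 3 reads in Romidepsin replicates 1 to 4, against 96, 36, 12 and 52 reads in untreated replicates 1 to 4, while the receptor chain Il1rap rose by 0.94 ± 0.33 (adjusted p = 0.0488). The call of Il1rn was lost on leaving out Romidepsin replicate 1, 2 or 4 (adjusted p = 0.0756, 0.0896 and 0.0817) or untreated replicate 1, 3 or 4 (0.0961, 0.0601 and 0.056), and its log2 fold change without untreated replicate 1 was −0.63. It was also lost with library size (0.103), upper-quartile (0.054) and housekeeping scaling (0.366) and with no count filter (0.0564). That of Il1rap was lost with the replicate block (0.0785), DESeq2 size factors (0.0545) and limma-voom (0.0923), and on leaving out any library but Romidepsin replicate 3 (0.0502 to 0.14). Il18bp, the decoy of interleukin-18, passed only with the block (−1.02, adjusted p = 0.00419).

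Of 10 transcription factors of the pathway, 4 fell and none rose (0 by unadjusted p, DESeq2 or limma-voom, and 1 with the block). Irf2, which drives Gsdmd transcription in mice, fell to 81.1 ± 30.9 CPM in Romidepsin-treated cells, against 186 ± 38.4 CPM in untreated cells (−1.19 ± 0.27, adjusted p = 0.0103; 0.0608 with housekeeping scaling). The NF-κB subunit genes Rela (−0.74 ± 0.13, adjusted p = 0.00456) and Nfkb1 (−0.82 ± 0.21, adjusted p = 0.0158) fell on the TMM scale, though with housekeeping scaling Rela was at −0.04 (adjusted p = 0.91) and Nfkb1 at −0.14 (adjusted p = 0.753), and Nfkb1 did not pass with library size scaling (0.0868). Irf8, known to drive Naip genes in mice, did not pass (−0.46 ± 0.23, adjusted p = 0.14), nor did Cebpb (−0.43 ± 0.38, adjusted p = 0.387).

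**Figure D4:**
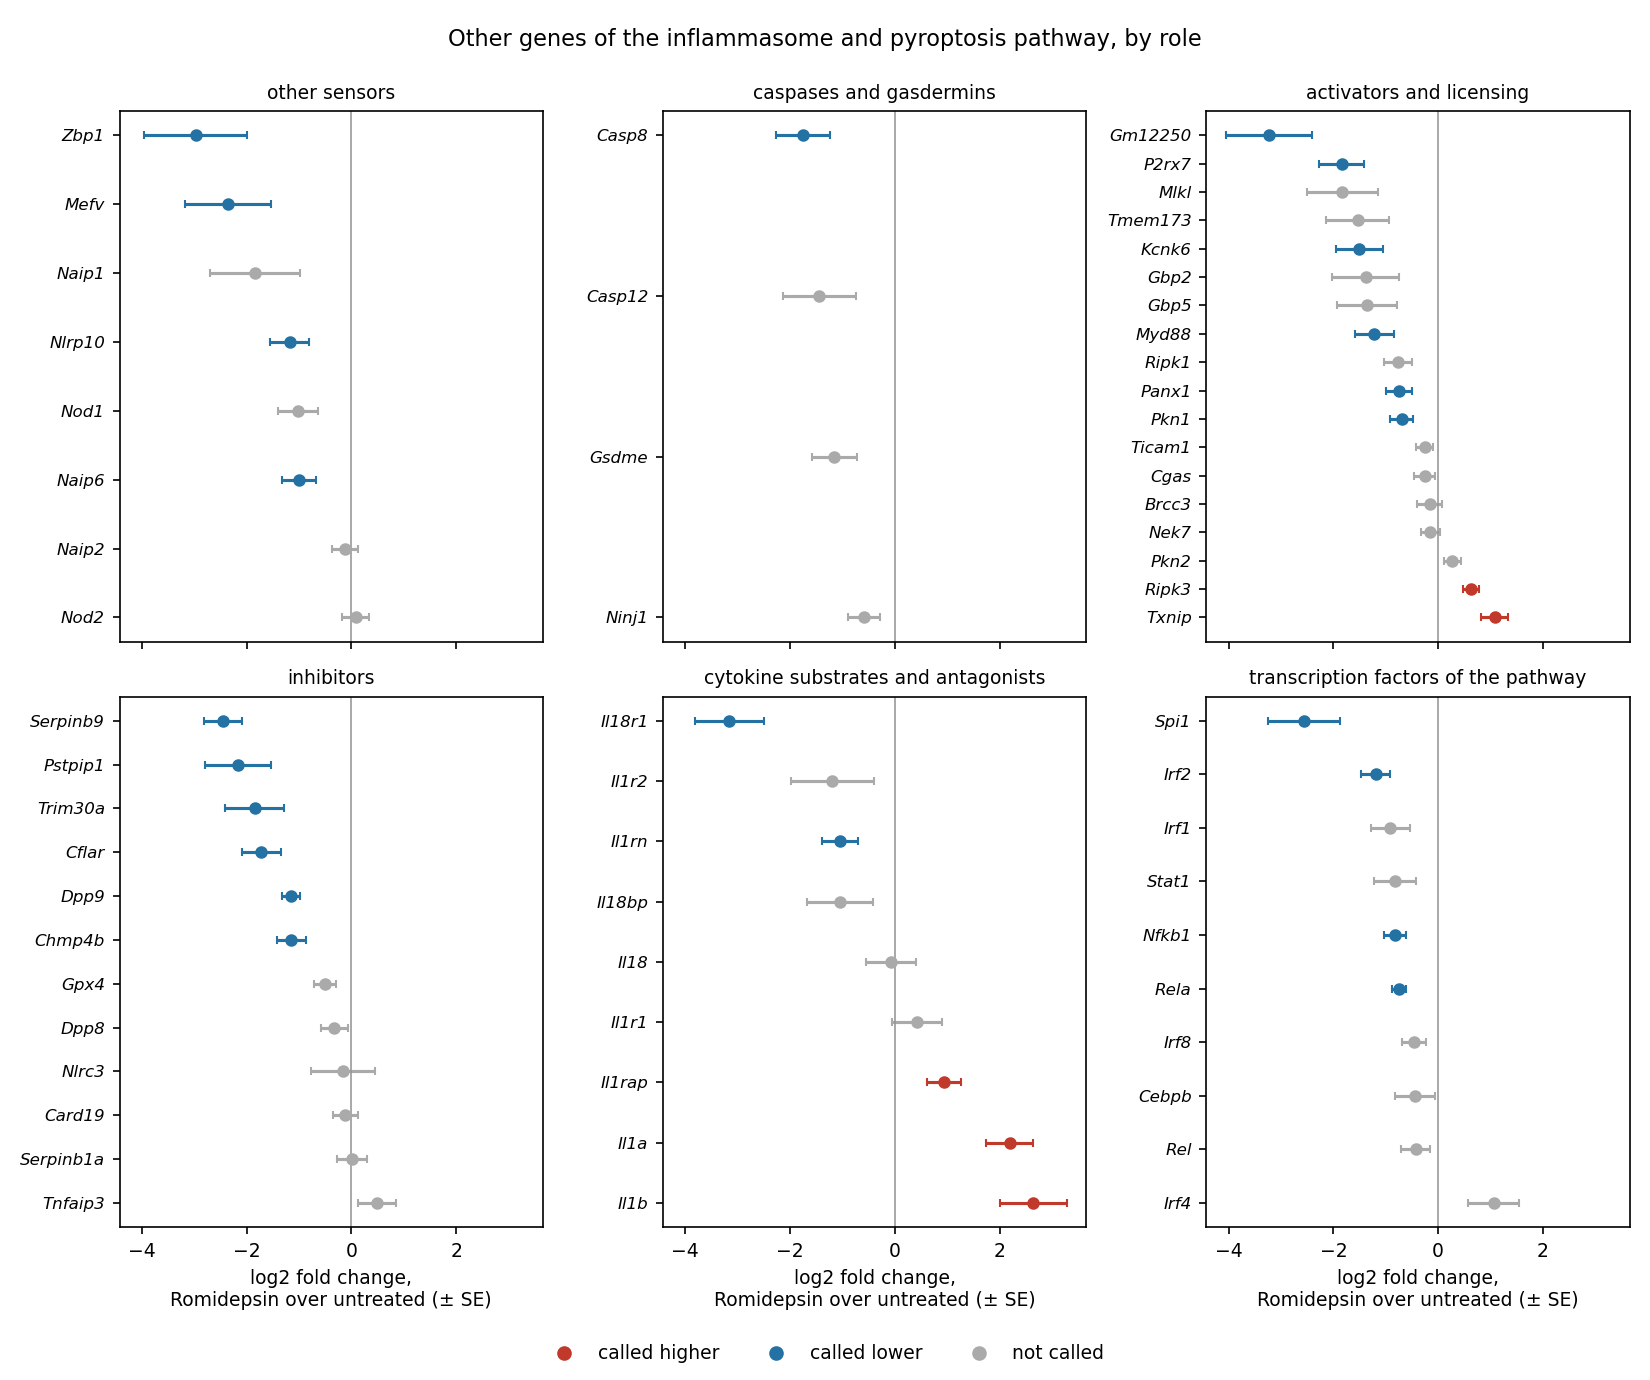
Log2 fold change, Romidepsin over untreated, with its standard error for 61 of the 63 tested pathway genes outside the 9, in 6 panels by role, coloured by whether edgeR called them higher, lower or neither at an adjusted p under 0.05. Rises lie among the cytokines (Il1a, Il1b and Il1rap) and at Txnip and Ripk3.

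Markers of cell types were summed per list, and some sums were lower in Romidepsin libraries while others overlapped. Among all tested genes 16.2% were called lower and 20.3% higher. The 13 markers of myeloid cells and MDSCs summed to 1161 to 6886 CPM in Romidepsin libraries, the highest in Romidepsin replicate 3, against 7936 to 12699 CPM in untreated libraries, with 1 marker called lower (Spi1). The 10 monocyte and macrophage markers summed to 1512 to 7870 CPM in Romidepsin libraries, again highest in Romidepsin replicate 3, against 5654 to 12663 CPM in untreated libraries, with 1 called lower. For the 10 neutrophil markers the sums were 522 to 1833 CPM in Romidepsin libraries against 2379 to 4965 CPM in untreated libraries, with 4 called lower. Here Romidepsin replicate 3, at 1774 CPM, did not hold the highest Romidepsin sum. The 8 dendritic cell markers summed to 14.1 to 111 CPM in Romidepsin libraries against 94.8 to 243 CPM in untreated libraries. Romidepsin replicate 3 held the lowest of these sums, Xcr1 was at 0 in 6 libraries, and 1 of 4 tested markers was called lower. The 6 B cell markers summed to 23.5 to 91.5 CPM in Romidepsin libraries against 84.9 to 288 CPM in untreated libraries, with 4 called lower. T cell markers summed to at most 10.2 CPM in Romidepsin and 29.4 CPM in untreated libraries, NK cell markers to at most 2.45 and 9.66 CPM, and erythroid markers to at most 2.98 and 1.26 CPM, with Ncr1 at 0 in 6 libraries. Megakaryocyte (353 to 814 CPM in Romidepsin, 357 to 868 CPM in untreated libraries), mast cell and basophil (20.8 to 67.6 and 58.1 to 85.0 CPM) and stromal and endothelial sums (47.1 to 206 and 52.8 to 101 CPM) overlapped between groups. Tested were 4 of 7 T cell, 1 of 6 NK cell, 5 of 5 megakaryocyte, 6 of 7 stromal and 1 of 6 erythroid markers. Gzma, Hbb-bs and Alas2 were not among the genes counted. In each of the T cell, NK cell, megakaryocyte and stromal lists 1 tested marker was called lower, and the 1 tested erythroid marker was called higher. In these bulk samples, fewer cells of a type and less RNA per cell cannot be told apart, and the part of cell make-up in the values of the 9 genes was not tested.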

How the data were processed

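The values are raw counts of reads per Ensembl gene in 8 libraries, as the authors deposited them. The submitters' processing notes name FastQC, STAR 2.5.2a, DESeq2 and the build GRCm38 (mm10). The tool that counted reads, its annotation and its strand setting were not given in the sources used here. Sequencing used a NextSeq 500 and a 75-cycle kit on poly(A)-selected RNA, per the labels' protocols.

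Genes with enough reads (filterByExpr) were fitted in edgeR 4.0.16 under R 4.3.3, with TMM scaling and the robust quasi-likelihood F test on both sides. Benjamini-Hochberg adjustment ran over all 12852 genes tested, and a call is an adjusted p under 0.05. Fold changes are Romidepsin over untreated, and a standard error is the absolute log2 fold change divided by the square root of F. The fit was also run on simulated counts of independent libraries. These held no pairing and no library that stood apart, so that run does not cover these features of the data. Symbols matched 26881 of 26930 identifiers, and no 2 libraries held the same values. Coordinates and exon lengths are those of GENCODE M21 (GRCm38), and shared sequence was searched over all 75-base stretches of annotated transcripts.

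Same-numbered libraries of the 2 groups deviated together from their group means, with correlations of 0.171 to 0.525, against at most 0.0467 for other numbers. The labels do not say what a number marks, so the fit reported leaves the numbers out. A pairing by number rests on these correlations alone. With the numbers as a block 5 of 9 members were called lower, against 2 of 9 in the fit reported. The replicate block is an alternative and is printed where it changes a call. The other alternatives were 4 scalings (DESeq2 size factors, library size, upper quartile, 21 housekeeping genes), no count filter, a mean of at least 10 CPM, the Wald test of DESeq2 1.42.0, limma-voom (limma 3.58.1), and leaving out each library or both numbered 3.

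The members, lists, tests and alternatives were chosen with earlier results of these data known. From each role of the wider list, the rule takes the 3 called genes of smallest p in the commoner direction, 2 in the rarer one and the 2 uncalled genes of highest level, and always Il1a, Il1b, Il18, Nek7, Gsdme, Ninj1, Irf2 and Irf8. A few genes that the rule takes are not reported here, although the counts per list include them.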

Additional observations from a re-analysis of the deposited data

Results flagged for a closer look

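In 7 of 88 gene and group combinations examined, 1 library lay far from the other 3 of its group by Dixon's criterion, which chance exceeds in about 1 in 20 groups. None concerned the 9 genes themselves. Untreated replicate 1 was the far library in 4 of them: Gsdme at 53.6 CPM (the others 19.0 to 19.9), Ninj1 at 201 CPM (287 to 292), Il1rn at 123 CPM (48.3 to 56.5) and Il1r2 at 138 CPM (12.6 to 20.7). Romidepsin replicate 3 was the far library for Nlrp10, at 1.85 CPM (the others 0.746 to 0.906), and for Dpp9, at 31.1 CPM (23.4 to 24.6). Romidepsin replicate 2 was it for Nfkb1, at 103 CPM (74.3 to 78.9).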

How the results depend on the processing

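The count of members called lower, 2, was 1 with library size scaling, with housekeeping scaling and with no count filter, and was 5 with the replicate block, the DESeq2 Wald test and limma-voom. It was 7 without both libraries numbered 3, and leaving out 1 library gave 1 (without untreated replicate 3) to 8 (without Romidepsin replicate 3). Members called higher, 0, were 1 with library size and 1 with housekeeping scaling. Wider pathway genes called lower, 23, were 12 with housekeeping scaling, 14 with no count filter and 36 with the replicate block, and 10 (without Romidepsin replicate 4) to 36 (without Romidepsin replicate 3) on leaving out 1 library. They were 11 and 13 without Romidepsin replicates 1 and 2, and 13, 11 and 14 without untreated replicates 2, 3 and 4. All genes called higher, 2610, were 5036 with housekeeping scaling and 1716 to 3146 on leaving out 1 library. All genes called lower, 2080, were 1368 with library size scaling, 731 with housekeeping scaling and 1183 to 3010 on leaving out 1 library. They were 2667 with the replicate block, 2794 with the DESeq2 Wald test, 2405 with limma-voom and 2434 without both libraries numbered 3. With the replicate block, beside these counts, the calls of Nlrp1b, Nlrc4, Casp4, Gsdme, Ripk1 and Il18bp were gained and that of Il1rap was lost, and no other named gene changed its call.

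None of the log2 fold changes that changed sign had been called. With housekeeping scaling they were 0.31 for Naip5, 0.51 for Naip2, 9.9e-05 for Ninj1, 0.52 for Nek7, 0.53 for Card19, 0.20 for Gpx4, 0.46 for Il18, 0.28 for Irf8 and 0.15 for Cebpb. With library size scaling they were 0.19 for Naip2, 0.16 for Nek7, 0.15 for Card19 and 0.17 for Il18. On leaving out 1 library the ranges were −0.26 to 0.17 for Naip2, −0.15 to 0.22 for Nod2, −0.29 to 0.043 for Card19, −0.65 to 0.18 for Il18 and −1.74 to 0.33 for Il1r2. The cause of these changes was not tested. Among the members, read depth was lowest for Nlrp1b, with 7 reads in each of 2 Romidepsin libraries, and among the other named genes for Il18r1, with 3 to 10 reads in Romidepsin libraries.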
